A study of Mus musculus with 4 samples.

Results

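The genes examined were 10 surface molecules and receptors through which macrophages restrain or drive lymphocytes: Pdcd1lg2 (PD-L2), Cd274 (PD-L1), Lgals9 (galectin-9), Cd80, Cd86, Cd40, Icosl, Cd276 (B7-H3), Havcr2 (TIM-3) and Cd200r1. They were listed by name, and a probe counted as theirs when the RefSeq accession that the array's design gives for it resolved to one of these symbols. All 10 had a probe on the arrays and all 10 were tested, with 16 probes between them, out of 24067 genes tested in all. PD-L1 and PD-L2 both bind the inhibitory receptor PD-1 on T cells, and PD-L1 is made by many cell types whereas PD-L2 is known mainly from macrophages and dendritic cells. Cd80 and Cd86 engage the stimulatory receptor CD28 and the inhibitory receptor CTLA-4, Cd40 is the macrophage receptor for the CD40 ligand of helper T cells, and Icosl binds the T cell co-stimulator ICOS. Kupffer cells, macrophages that reside in the liver sinusoids, are known to present antigen to passing T cells in a largely tolerant setting.

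Total RNA came from primary Kupffer cells of male C57BL/6 mice aged 8 weeks, cultured for 24 h with maresin 1 at 200 nM (MaR1) or with its ethanol vehicle (Veh), both in medium holding 0.1% serum. Maresin 1 is a lipid mediator derived from docosahexaenoic acid and known for its part in the resolution of inflammation. The cells had been taken from a Percoll layer of perfused liver, with no further sort named in the labels, and each group had 2 one-colour arrays. Whether these came from different cultures or mice is not stated in the labels. The p-values therefore reflect only how far these arrays scatter, which may be technical error alone. The MaR1 and the Veh arrays lay at different positions of 1 slide, so position and treatment cannot be told apart.

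Values are processed signals in the scanner's arbitrary intensity units, and levels are these on a log2 scale after division by the 75th percentile of the array, which was 946 and 847 on the MaR1 arrays, against 961 and 988 on the Veh arrays. Because the second MaR1 array was dimmer as a whole, its unscaled signals understate its levels. Between 54.5% and 55.6% of probes were well above background and 0 spots were saturated on any array. All 8 Kupffer cell markers tested were measured in both groups. Genes were called at a limma adjusted p of at most 0.05 (Benjamini-Hochberg over all genes tested), which called 5768 of 24067 genes, a background of 24% (2700 higher and 3068 lower with MaR1, or 3499 higher and 2367 lower when arrays were scaled to their medians). Of these, 1404 (24.3%) stayed called whichever of the 4 arrays was left out.

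Pdcd1lg2 and Cd274 are neighbours on mouse chromosome 19 (GRCm38.p6), both on the plus strand, with Cd274 annotated at chr19:29362107-29388095 and Pdcd1lg2 at chr19:29410919-29472927. The windows of 250 bases before their RefSeq starts are shown because the MaR1 differences of these neighbours were so unlike in size. Each was searched on both strands for the letters of 5 motifs. These were a STAT site (TTC, any 3 bases, GAA), a STAT6-type site (TTC, any 4 bases, GAA), an interferon response element (GAAA, any 2 bases, GAAA), an ETS-IRF composite (GGAA, any 2 bases, GAAA) and an NF-kappaB-type site (GGG, any 5 bases, CC). Capitals mark the matches. The Pdcd1lg2 window is chr19:29410669-29410918 and the Cd274 window chr19:29367188-29367437, which lies inside the annotated span of Cd274.
Pdcd1lg2: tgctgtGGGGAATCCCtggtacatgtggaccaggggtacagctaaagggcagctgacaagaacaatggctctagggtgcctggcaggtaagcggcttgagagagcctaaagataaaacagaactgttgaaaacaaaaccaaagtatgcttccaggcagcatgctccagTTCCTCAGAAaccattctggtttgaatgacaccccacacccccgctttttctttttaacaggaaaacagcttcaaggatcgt
Cd274: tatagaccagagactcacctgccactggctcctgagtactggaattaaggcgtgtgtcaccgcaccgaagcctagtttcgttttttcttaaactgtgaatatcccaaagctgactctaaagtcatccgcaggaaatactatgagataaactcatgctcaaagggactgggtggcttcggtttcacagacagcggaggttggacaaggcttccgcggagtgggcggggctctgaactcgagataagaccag

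The Pdcd1lg2 window held the STAT6-type letters as TTCCTCAGAA, at positions -82 to -73 from the start, and the NF-kappaB-type letters as GGGGAATCCC, at -244 to -235. The Cd274 window held a match to none of the 5 motifs. Among 32851 RefSeq windows of the same length, 5.85% held the STAT6-type letters, 7.02% the STAT site, 2.98% the interferon response element, 2.3% the ETS-IRF composite and 45.8% the NF-kappaB-type letters. These are matches of letters, and binding of a factor was not measured. Windows were found for 7 of the 10 genes. Of the others, Lgals9 held matches to the interferon response element, the ETS-IRF composite and the NF-kappaB-type site. Cd80, Icosl and Cd276 held the NF-kappaB-type letters alone, and Havcr2 none of the 5.

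**Figure D1:**
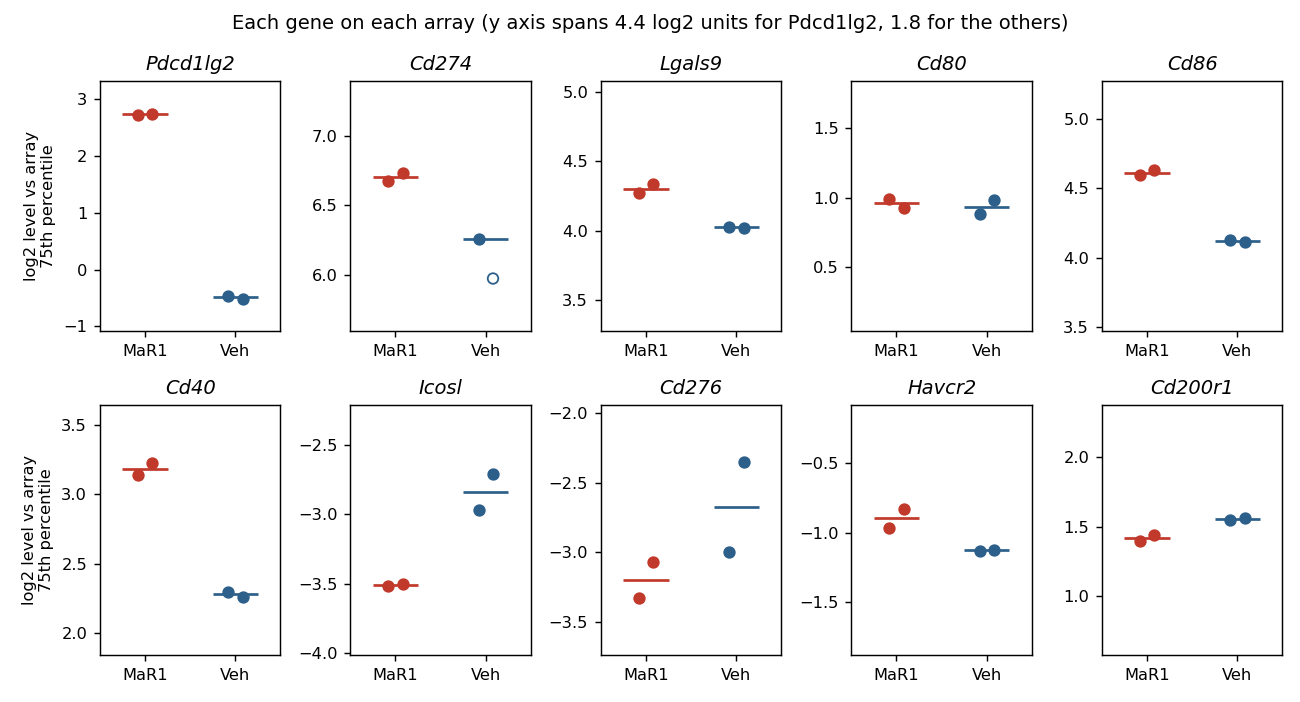
Level of each of the 10 genes on each array (log2 of the processed signal over that array's 75th percentile), MaR1 arrays left of Veh arrays. Pdcd1lg2 lay at a mean of 2.74 on MaR1 arrays and -0.48 on Veh arrays, far outside the spread between arrays of a group, and the hollow Cd274 point on the second Veh array is the spot left out as non-uniform.

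The comparison of MaR1 with Veh arrays asks how maresin 1 treatment bears on the transcripts of these genes. With maresin 1 PD-L2 mRNA rose 9.31-fold and Cd40 1.87-fold, and Cd86, Cd274 and Lgals9 rose 1.40-fold, 1.36-fold and 1.21-fold. Icosl fell, to a level 1.59-fold lower. Cd80, Cd276, Havcr2 and Cd200r1 did not pass the test. Of the 10 genes 5 rose and 1 fell, against 11.2% of all genes that rose and 12.7% that fell. A called difference of at least 1 on the log2 scale was seen in 1 of the 10, Pdcd1lg2, against 3.33% of all genes, and an unadjusted limma p under 0.05 in 7 of the 10, against 40.7%. In these bulk cultures fewer cells of a type and less RNA per cell cannot be told apart.

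Among the inhibitory ligands, Pdcd1lg2 had processed signals of 6253 and 5678 on the MaR1 arrays, against 701 and 693 on the Veh arrays. Both MaR1 arrays were far above both Veh arrays, and the arrays within each group lay close together. The mean level was 2.74 ± 0.01 with MaR1 and -0.48 ± 0.04 with Veh (log2, SD, n = 2 each). The difference was 3.22 ± 0.06 on the log2 scale (SE, 95% interval 3.06 to 3.37), or 9.31-fold (limma adjusted p = 0.00104). A larger fitted increase was seen for 21 of the 24067 genes tested, of which 11 were well above background on no Veh array and have only a bound. It was called without each array in turn, with differences between 3.19 and 3.25 and a highest limma adjusted p of 0.0226.

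Cd274 was already bright in Veh cultures and differed far less. Its processed signals were 96699.5 and 89753.5 on the MaR1 arrays, against 73468 on the first Veh array. The spot on the second Veh array was marked as non-uniform by the scanner software and was left out, so the fit rests on 2 MaR1 arrays and 1 Veh array. The difference was 0.45 ± 0.08 on the log2 scale (SE, interval 0.20 to 0.69), or 1.36-fold (limma adjusted p = 0.0419). Median pixel signals were 100839 and 95033.5 on the MaR1 arrays, against 77859 on the first Veh array and 81000 at the left-out spot, whose processed signal was 61961. Both Veh spots were thus below both MaR1 spots by either measure. With the marked spot kept, a choice made after seeing the data, the difference was 0.59 (limma adjusted p = 0.0315). The difference was 0.47 without the first MaR1 array and 0.42 without the second, and the call was lost in both fits. Leaving out the second Veh array removed no Cd274 value and left the difference at 0.45. The call was lost there too, though no Cd274 value had changed, so that fit says nothing about Cd274 itself. No Veh value remained without the first Veh array.

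Lgals9 encodes a secreted galectin that binds TIM-3. Its processed signals were 18253 and 17058 on the MaR1 arrays, against 15702 and 16034 on the Veh arrays. The groups did not overlap but lay close together, and the difference of 0.28 ± 0.06 on the log2 scale (SE, 1.21-fold) passed narrowly (limma adjusted p = 0.0381). The call was lost without each of the 4 arrays (limma adjusted p 0.0843 to 0.151) and held in 5 of 14 alternatives in all. With normexp and quantile normalization the difference was 0.14 (limma adjusted p = 0.113).

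**Figure D2:**
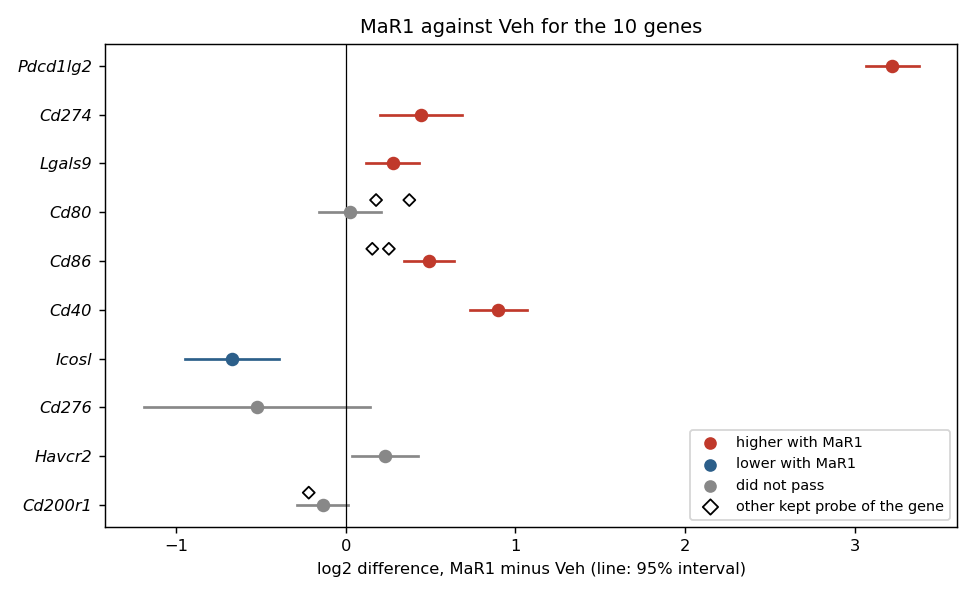
MaR1 minus Veh difference of each gene on the log2 scale with its 95% interval, grouped by role, with colour showing the call at a limma adjusted p of at most 0.05. Pdcd1lg2 stands at 3.22, Cd40 at 0.90 and Icosl at -0.67, and the intervals of Cd80, Cd276 and Cd200r1 include 0.

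The increase of Pdcd1lg2 exceeded that of Cd274 by 2.74 on the log2 scale, a 6.70-fold larger change. This rests on the 2 MaR1 arrays and the 1 Veh array with an unmarked Cd274 spot. Its SE of 0.03 reflects the gap between the 2 MaR1 arrays alone and holds no scatter of Veh arrays. The pooled SD between arrays was 0.02, against 0.12 with the marked spot kept. With so few arrays the exact permutation test (two-sided) gave p = 0.333, the smallest it can give. The excess was 2.73 without the first MaR1 array, 2.76 without the second, and 2.63 with the marked Cd274 spot kept. Leaving out the second Veh array could not change it, because that array gave no Cd274 value. The same subtraction over all 4 arrays gave 2.73 against Cd86, 2.32 against Cd40, 2.94 against Lgals9 and 3.19 against Cd80. It gave 2.99 against Havcr2, 3.35 against Cd200r1, 3.74 against Cd276 and 3.89 against Icosl. The exact permutation p was 0.333 for each of these as well, and levels of different probes were not compared. The intervals of Pdcd1lg2 and of Cd40, the gene with the next largest increase of the 10, did not meet.

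Among the activating molecules, Cd40 had processed signals of 8322 and 7909 on the MaR1 arrays, against 4731 and 4741 on the Veh arrays. The groups were well apart. The difference was 0.90 ± 0.06 on the log2 scale (SE, interval 0.73 to 1.07), or 1.87-fold (limma adjusted p = 0.00425), and it was called without each array in turn (highest limma adjusted p = 0.0324). Pdcd1lg2 and Cd40 were the only 2 of the 6 called genes that kept their calls through every array left out, against 24.3% of all called genes.

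Cd86 had processed signals of 22858 and 20926 on the MaR1 arrays, against 16791.5 and 17112 on the Veh arrays. The MaR1 arrays were both higher, by 0.49 ± 0.06 on the log2 scale (SE, 1.40-fold, limma adjusted p = 0.0102). Its other 2 probes gave 0.25 (limma adjusted p = 0.0396 with each probe as a row of its own) and 0.16 (0.138), so the size depends on the probe. The call at the brightest probe was lost without the second MaR1 array (limma adjusted p = 0.0543), the first Veh array (0.0579) and the second Veh array (0.0578).

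Cd80, the other B7 ligand of CD28 and CTLA-4, had processed signals of 1882 and 1611 on the MaR1 arrays, against 1774 and 1956 on the Veh arrays. The groups overlapped at this probe, with a difference of 0.03 on the log2 scale (interval -0.16 to 0.21, limma adjusted p = 0.803). A dimmer probe gave 0.18 (limma adjusted p = 0.106). The dimmest gave 0.37 (limma adjusted p = 0.0327), with signals of 492 and 426 on the MaR1 arrays, against 361 and 409 on the Veh arrays. The 3 Cd80 probes therefore did not give 1 answer.

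Icosl was the only one of the 10 that was lower with MaR1 and passed the test. Its processed signals were 82.8 and 74.6 on the MaR1 arrays, against 123 and 151 on the Veh arrays, all well above background but dim. The groups did not overlap, and the difference was -0.67 ± 0.10 on the log2 scale (SE, interval -0.95 to -0.39), or 1.59-fold lower (limma adjusted p = 0.0194). The call was lost without the first MaR1 array (limma adjusted p = 0.0759) and without the second (0.0821). A second Icosl probe was well above background on the first Veh array alone and was not tested.

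Cd276, a B7 family member for which both stimulatory and inhibitory effects on T cells have been described, had processed signals of 94.2 and 101 on the MaR1 arrays, against 120 and 194 on the Veh arrays. Both MaR1 arrays were lower, but the Veh arrays lay far apart, and the difference of -0.52 (interval -1.19 to 0.14) did not pass (limma adjusted p = 0.191). It was -0.85 without the first Veh array and -0.20 without the second, neither of them called.

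Neither of the inhibitory receptors carried on macrophages themselves passed the test. Havcr2, which encodes TIM-3, a receptor for galectin-9, had processed signals of 485 and 477 on the MaR1 arrays, against 439 and 453 on the Veh arrays. Its difference was 0.23 on the log2 scale (interval 0.04 to 0.42, limma adjusted p = 0.0853), and it was called with an intensity trend in the variance (0.0283) and with normexp and quantile normalization (0.0176). Cd200r1, the receptor through which CD200 restrains myeloid cells, had processed signals of 2489 and 2298 on the MaR1 arrays, against 2810 and 2913 on the Veh arrays. Its difference was -0.14 (interval -0.29 to 0.02, limma adjusted p = 0.153), and its other probe gave -0.22 (0.067).

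By role, the 3 inhibitory ligands had differences of 0.28 to 3.22 with a median of 0.45, and all 3 were called higher, Pdcd1lg2 alone of them without each array in turn. The 4 activating molecules ran between -0.67 and 0.90 with a median of 0.26, with 2 called higher, 1 lower and 1 not called. The 2 inhibitory receptors had a median of 0.05 and neither was called. The 10 genes had a median of 0.25, against -0.02 over all 24067 genes. MaR1 and Veh arrays did not overlap for 9 of the 10, against 69.6% of all genes, so the lack of overlap says little by itself. The ranges of inhibitory ligands and activating molecules overlap. In the main fit the differences of Cd40 and Cd86 were larger than those of Cd274 and Lgals9. The order of Cd86 and Cd274 depended on the processing. Cd86 was larger with quantile normalization (0.41 against 0.36). It was smaller with the mean of a gene's kept probes (0.30 against 0.45) and with the marked Cd274 spot kept (0.49 against 0.59).

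**Figure D3:**
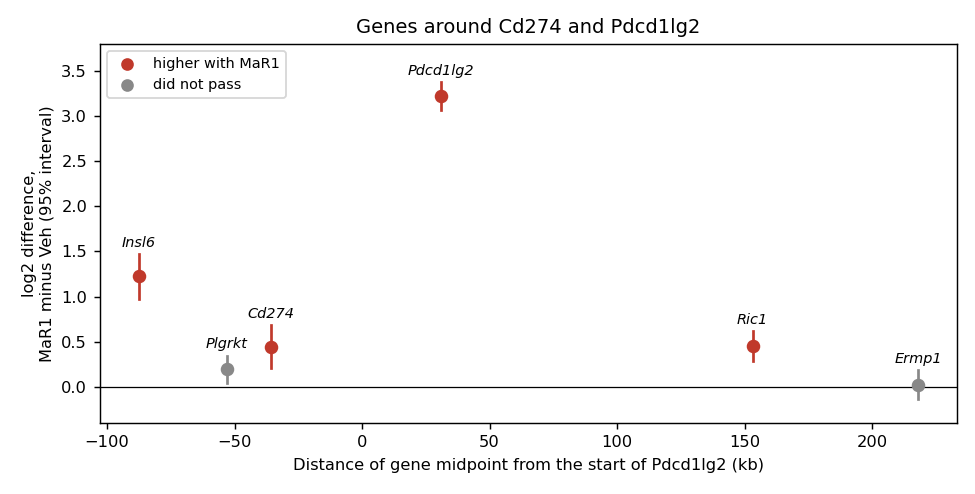
MaR1 minus Veh difference on the log2 scale, with 95% intervals, of the tested genes around Pdcd1lg2, placed by distance in kb of each gene's midpoint from the start of Pdcd1lg2. Pdcd1lg2 stands at 3.22 and Insl6 at 1.23, while Cd274, between them, stands at 0.45.

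The genes beside the pair on chromosome 19 did not share the size of the Pdcd1lg2 change. Insl6, an insulin-like peptide gene upstream of Cd274, had processed signals of 8817 and 9162 on the MaR1 arrays, against 4141 and 4232 on the Veh arrays. It rose by 1.23 ± 0.09 on the log2 scale (SE, 2.34-fold, limma adjusted p = 0.00486), and stayed called without each array. Ric1, downstream of Pdcd1lg2, rose by 0.45 ± 0.06 (limma adjusted p = 0.0153), a call lost without the second MaR1 array or either Veh array (up to 0.0789). Plgrkt, whose annotation overlaps that of Cd274, differed by 0.19 (limma adjusted p = 0.0798) and Ermp1 by 0.02 (0.805). Rln1 and A930007I19Rik were too dim to test.

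The 5 named genes whose levels over the 4 arrays, each centred on its own mean, lay nearest to those of Pdcd1lg2 were 4930542D17Rik, Postn, Plppr5, Arg1 and 5730435O14Rik. Euclidean distances were 0.0839 log2 units for Postn, 0.151 for Arg1 and 0.224 for 5730435O14Rik. Arg1, the arginase that marks alternatively activated macrophages in mice, had processed signals of 114269 and 102336 on the MaR1 arrays, against 13778 and 14179 on the Veh arrays. It was 8.42-fold higher (3.07 ± 0.05 on the log2 scale, limma adjusted p = 0.00104). Postn, the matrix protein periostin, was 8.90-fold higher and 5730435O14Rik 9.56-fold higher. The transcripts 4930542D17Rik and Plppr5 were not well above background on either Veh array and were at least 2.21-fold and at least 2.35-fold higher, so their distances rest on signals below background and are not determined. With 4 arrays in 2 groups, this likeness is mainly one of the size of the group difference.

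**Figure D4:**
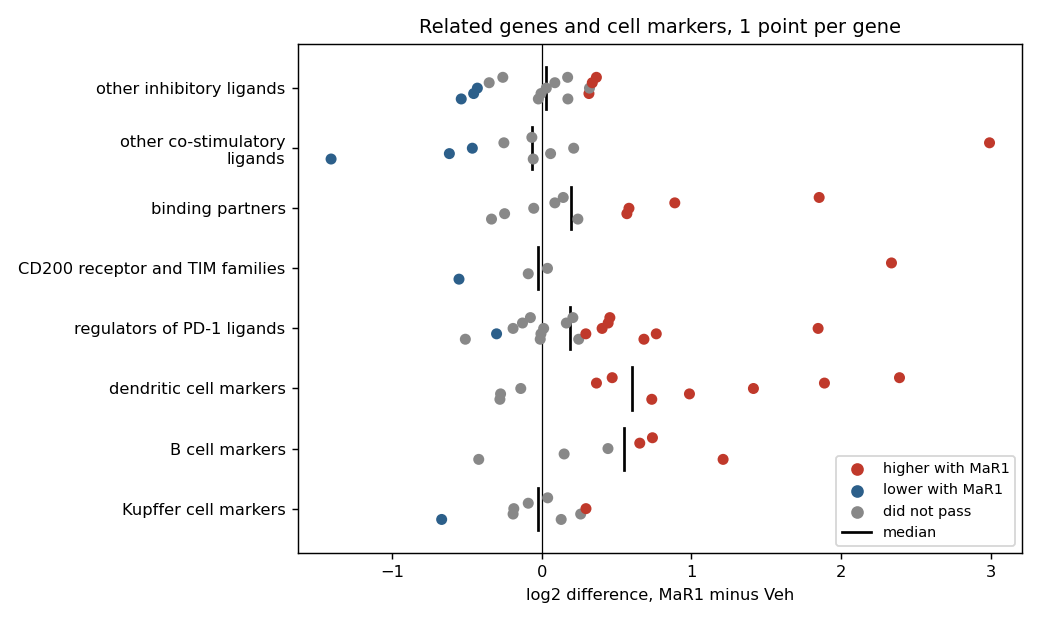
MaR1 minus Veh differences on the log2 scale of the genes in the related lists, 1 row per list, with colour showing the call at a limma adjusted p of at most 0.05. Slamf1 lies near 3 and Irf4 near 1.85, while most other genes of the ligand lists lie between -0.6 and 0.6.

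Of 18 other inhibitory ligands, 15 were tested. Among these 3 rose, 3 fell and 9 did not pass, with a median of 0.03. Cd47, the signal against phagocytosis, differed by 0.36 (limma adjusted p = 0.0205), Btnl2 by -0.54 (0.0148), Tnfrsf14, the HVEM receptor, by -0.43 (0.0171) and Vsir, the checkpoint molecule VISTA, by -0.46 (0.0176). None of the 6 calls held through every array left out, each having been lost without at least 1 of the 4 arrays.

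Of 9 tested TNF-family and other co-stimulatory ligands, 1 rose, 3 fell and 5 did not pass, with a median of -0.07. Slamf1, the self-binding receptor CD150, had processed signals of 780 and 821 on the MaR1 arrays, against 98.5 and 122 on the Veh arrays. It was 7.96-fold higher (2.99 ± 0.13 on the log2 scale, limma adjusted p = 0.00236) and stayed called without each array. Cd70, the ligand of CD27, had signals of 46.5 and 34.5 on the MaR1 arrays, against 98.6 and 136 on the Veh arrays, a fall of 1.41 ± 0.18 (limma adjusted p = 0.0134) that was lost without the second MaR1 array (0.0632). Cd48 fell by 0.46 (limma adjusted p = 0.0124) and Tnfsf18, the GITR ligand, by 0.62 (0.0332), and these calls too were lost when single arrays were left out.

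Of 10 tested binding partners of these ligands, most of them lymphocyte genes, 4 rose and 6 did not pass, with a median of 0.19. Lag3, an inhibitory receptor of T cells, differed by 0.89 ± 0.07 (limma adjusted p = 0.00576), Cd96 by 0.58 (0.0101) and Icos by 0.57 (0.0218). Tigit was called higher (limma adjusted p = 0.0236), but its probe was well above background on 1 of the 2 Veh arrays, and its difference ran between 0.70 and 2.30 over the alternatives. Lag3 alone of these stayed called without each array. Pdcd1, which encodes PD-1, had processed signals of 89.3 and 76.0 on the MaR1 arrays, against 94.0 and 121 on the Veh arrays, and did not pass (limma adjusted p = 0.216). Ctla4 and Cd40lg were too dim to test. In the families of the receptor members, Timd2 was at least 1.30-fold higher (limma adjusted p = 0.0118), Cd200r2 differed by -0.55 (0.0202), and Timd4 and Cd200r4 did not pass (0.307 and 0.679).

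Of 18 genes known to regulate the PD-1 ligands, all were tested, 7 rose, 1 fell and 10 did not pass, with a median of 0.19. Irf4, a transcription factor of alternative macrophage activation, had processed signals of 1450 and 1527 on the MaR1 arrays, against 423 and 479 on the Veh arrays. It was 3.60-fold higher (1.85 ± 0.11 on the log2 scale, limma adjusted p = 0.00316). Jak2, a kinase of the interferon-gamma receptor encoded on the same chromosome as the ligands, had signals of 8486 and 7660 on the MaR1 arrays, against 5363 and 5582 on the Veh arrays, a 1.60-fold difference (limma adjusted p = 0.00544). These were the 2 calls of the list that held without each array. Ifngr2 differed by 0.45 (limma adjusted p = 0.0118), Myc by 0.76 (0.0124) and Ifngr1 by -0.30 (0.0313). Il4ra, a subunit of the interleukin-4 receptor, differed by -0.01 (limma adjusted p = 0.921) and Stat6, its signal transducer, by -0.19 (0.12).

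Markers of other cell types that express several of these ligands moved with the treatment. Of 10 tested dendritic cell markers 7 rose and 0 fell (median 0.60), and their summed level, in multiples of the array's 75th percentile, was 75.8 and 76.5 on the MaR1 arrays, against 51.3 and 47.9 on the Veh arrays. Most of the rise in that sum came from Batf3, with processed signals of 22817 and 21302 on the MaR1 arrays, against 6373 and 6592 on the Veh arrays. The sum of the other markers rose less. Itgax was 5.24-fold higher (limma adjusted p = 0.00154), Batf3 3.70-fold (0.0015), Clec10a 2.66-fold (0.00258) and Clec9a 1.98-fold (0.00329). Of the 7 calls only those of Itgax, Batf3, Clec10a and Clec9a held through every array left out. Macrophages too are known to make Itgax and Clec10a. Flt3 differed by -0.28 (limma adjusted p = 0.0571), Siglech, the brightest probe of the list, by -0.28 (0.0964), and Xcr1 was too dim to test. Of 6 tested B cell markers 3 rose and 0 fell, among them Ms4a1 by 1.21 (limma adjusted p = 0.00435) and Cd79b by 0.74 (0.00887), while Cd22, the brightest, differed by 0.15 (0.124), and their summed level was 8.78 and 8.62 on the MaR1 arrays, against 6.65 and 6.78 on the Veh arrays. Of 8 T and NK cell markers 2 rose and 3 fell, with Gzma and Cd8a higher and Nkg7, Cd3g and Cd4 lower, and a summed level of 56.5 and 63.4 on the MaR1 arrays, against 33.1 and 31.9 on the Veh arrays. Without Gzma that sum was 11.4 and 11.5 on the MaR1 arrays, against 13.9 and 13.6 on the Veh arrays, and the calls of Nkg7, Cd3g and Cd4 were lost without each of the 4 arrays. Of the 8 Kupffer cell markers Adgre1 fell by 0.67 (limma adjusted p = 0.00634), Csf1r rose by 0.29 (0.0471) and 6 did not pass. Marco, the brightest, was among the 6 (-0.19, limma adjusted p = 0.0905). The Adgre1 call held through every array left out. That of Csf1r was lost without each of the 4 arrays and held in 5 of 14 alternatives in all. The summed level of the 8 was 871 and 863 on the MaR1 arrays, against 953 and 918 on the Veh arrays. The part of these other cells in the changes of Pdcd1lg2, Cd40, Cd86 and Slamf1 was not tested.

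**Figure D5:**
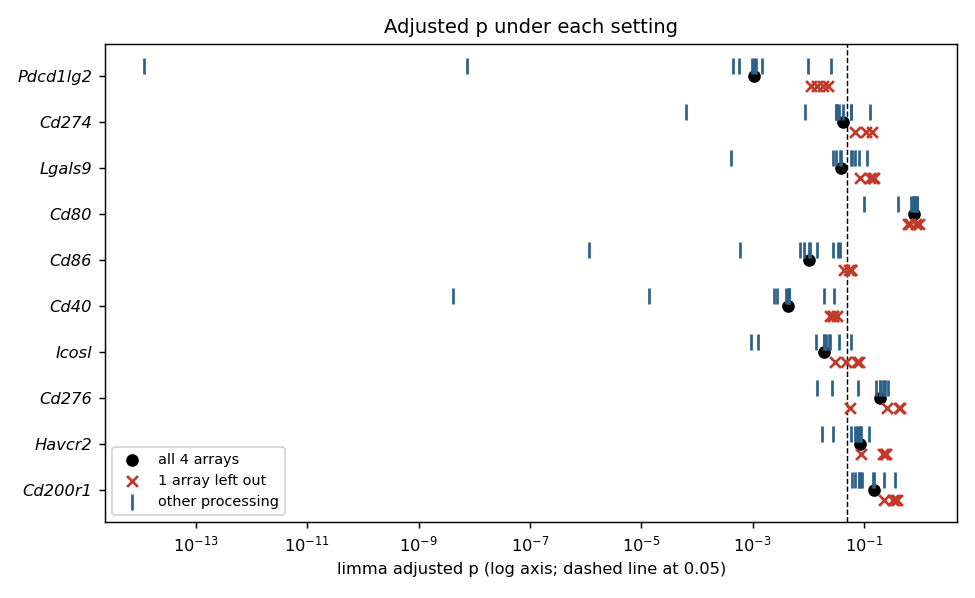
Limma adjusted p of each of the 10 genes under each setting, on a log axis with a dashed line at 0.05. Circles mark the fit to all 4 arrays, crosses the fits with 1 array left out and vertical ticks other processing. Pdcd1lg2 and Cd40 lie left of the line under every setting. Their differences, which are not drawn, stayed between 3.05 and 3.28 and between 0.85 and 0.96 on the log2 scale. Cd274, Lgals9, Icosl and Cd86 lose their calls under some settings, and Havcr2 and Cd276 gain calls under 2.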

How the data were processed

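RNA of cultured mouse Kupffer cells was measured on 4 one-colour Agilent arrays, 2 MaR1 and 2 Veh, grouped by their treatment label. The deposited scanner files hold linear intensity values, which the authors made with Agilent Feature Extraction 11.0.1.1, background-subtracted and not normalized between arrays, per the submitters' processing notes and the file headers. A further deposited table of the authors gives log2 values. Its scale is unstated, and each column followed log2 of the processed signal of its array (29710 rows, column medians 9.07). Once sorted, its 4 columns matched to within 0.002, as they do after quantile normalization. All its rows (100%) were well above background on all 4 arrays. The table was used as an alternative, which is thus not independent of the one that applied quantile normalization.

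From these, each processed signal was divided by its array's 75th percentile and put on a log2 scale, leaving out control spots and outlier-marked spots. Probes entered (31128) where 1 group or both had them well above background on all its arrays and each group had an unmarked spot. Probes were named by RefSeq accession (58.3% of them), the brightest such probe stood for its gene, and 14496 of 24067 genes had a RefSeq symbol. For a gene that no array of a group measured well above background, the fold is a bound, written as "at least", set by the lowest signal well above background or the probe's own.

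The difference, MaR1 minus Veh, was fitted in R 4.3.3 with limma 3.58.1 (lmFit, eBayes, two-sided), adjusted by Benjamini-Hochberg over all genes with a threshold of 0.05. The prior degrees of freedom were 2.27. Files were read with the data.table package, version 1.17.8. The fit was tested on simulated data with 50 changed genes of each size. It recovered 20% of differences of 0.5 log2 units, 62% of 1, 82% of 2 and 86% of 3. Of 129 calls 4 were false. Small differences that did not pass may therefore have been missed. Figures used matplotlib 3.10.9 in Python 3.11.15. The number of arrays limits the precision. Replicate numbers were not used as pairs. Promoter windows came from RefSeq (GRCm38.p6).

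Alternatives were quantile normalization, normexp (offset 50) with quantile normalization, run on the median spot signal because the files give no mean, the authors' table, other filters and probe rules, an intensity trend in the variance, the replicate block, array medians, each array left out, and, chosen after seeing the data, outlier-marked spots kept. The 10 genes and all lists were chosen with earlier results of these data known. Named genes were the 10, up to 4 per further list with the smallest unadjusted p and any with only a bound, the most abundant marker of each cell type, the 5 nearest to Pdcd1lg2 and the chromosomal neighbours. Pdcd1, Il4ra, Stat6, Ifngr1, Flt3, Cd4, Lyve1 and Clec4g fell outside that rule and were named after their values were seen.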

Additional observations from a re-analysis of the deposited data

How the results depend on the processing

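Over 15 alternatives, 152 recomputed values stayed the same, 43 weakened, 8 strengthened, 4 moved and 3 reversed. For the difference of a gene, the same meant the same direction and side of the threshold. For a count of called genes it meant only a similar count. For the excess of the Pdcd1lg2 change over the Cd274 change it meant a shift below the pooled SD between arrays. That SD came from the 2 MaR1 arrays alone. The reversed ones were all of Cd80, never called: -0.042 with normexp and quantile normalization, and below 0 without the first MaR1 array or the first Veh array (-0.025 to 0.076 over the arrays left out), against 0.03. Pdcd1lg2 and Cd40 were called under all 14 alternatives that represent a gene by 1 value. Without a filter on dim probes 1087 genes were higher and 972 lower with MaR1, in place of 2700 and 3068, with 3 of the 10 genes higher and 0 lower, in place of 5 and 1, and the median of all genes moved to -0.14, against -0.02. With an intensity trend in the variance 4524 genes were higher and 4672 lower, with 6 of the 10 higher and 2 lower, Havcr2 and Cd276 gaining calls. Normexp with quantile normalization gave 5 higher, with Havcr2 gained and Lgals9 lost, and 2 lower, Cd276 joining Icosl, and quantile normalization alone 3 higher. With the replicate block 1766 genes were higher and 1926 lower, with 3 of the 10 higher: Cd274 (limma adjusted p = 0.127) and Lgals9 (0.083) lost their calls. The replicate numbers showed no sign of pairing the samples: over genes, replicate 1 minus replicate 2 correlated between the groups with r = -0.03. That value cannot show whether cultures or mice were shared, which the labels do not state. With 1 array left out, 1011 to 1336 genes were higher and 916 to 1489 lower, with 2 to 3 of the 10 higher and 0 to 1 lower, where the lone array is assumed to vary like the others and fewer samples remain. With quantile normalization Cd274 (0.0591) and Lgals9 (0.0677) lost their calls, as did Lgals9 with the authors' table (0.0598), and Cd274, Lgals9 and Icosl without a filter (0.0594 each). The excess of the Pdcd1lg2 change over the Cd274 change was 2.72 with the authors' table, 2.64 with normexp, 2.63 with outlier-marked spots kept and 2.80 with quantile normalization, against 2.74. Apart from the filter and the arrays left out, the causes were not tested. Icosl and Cd276 were dim, at signals of 74.6 to 194.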

Other observations

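Markers of the remaining liver cell types were mixed. Of 6 endothelial markers 3 rose with MaR1. Pecam1, the adhesion molecule CD31, had processed signals of 3054 and 2605 on the MaR1 arrays, against 1395 and 1375 on the Veh arrays. It was 2.22-fold higher (limma adjusted p = 0.00298), Stab2 1.38-fold (0.0185) and Cdh5 1.26-fold (0.0469). Of these only the Pecam1 call held through every array left out. That of Stab2 was lost without the second MaR1 array or either Veh array, and that of Cdh5 without each of the 4 arrays. The summed level of the 5 endothelial markers with a value on every array was 72.4 and 72.3 multiples of the 75th percentile on the MaR1 arrays, against 58.5 and 61.4 on the Veh arrays. Pecam1 is also made by leukocytes, and Kdr, Lyve1 and Clec4g, which mark endothelium, did not pass. Of 7 tested neutrophil and monocyte markers 1 fell, Ccr2, the chemokine receptor of inflammatory monocytes, with signals of 195 and 170 on the MaR1 arrays, against 314 and 328 on the Veh arrays (limma adjusted p = 0.00549), and Ly6c2, the brightest, differed by -0.04 (0.69). Of 6 hepatocyte markers Ttr fell by 0.41 (limma adjusted p = 0.0194) and 5 did not pass, among them Alb and Serpina1a (0.125 and 0.0942). The Ttr call was lost without each of the 4 arrays. None of the 4 tested stellate cell markers passed with limma, Col1a2 coming nearest (difference -0.44, adjusted p = 0.0596), and all 4 were dim. The part of these cells in the differences reported above was not tested.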
